A study of Sus scrofa with 32 samples.

Results

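White adipose tissue stores triglyceride in the lipid droplets of adipocytes and releases it again as fatty acids. Its genes fall into a few well-known groups. Lipoprotein lipase and the fatty acid binding proteins bring fatty acids into and through the cell, perilipins coat the droplet, lipases open it, and hormones such as adiponectin leave the tissue. Between the adipocytes lie fibroblasts, vessels and a collagen matrix, so a gene that is abundant in fat and scarce in liver may come from any of these cells. In a bulk sample, fewer cells of a type and less RNA per cell cannot be told apart.

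A set of 280 fat-enriched abundant genes, of 31908 genes listed, was described in the fat of Złotnicka White pigs with high (HFD) and low (LFD) fat content. The members were chosen by their CPM, the counts of a gene after every library is scaled to the same total. The median over the 16 fat libraries had to reach 20 CPM, and it had to reach 20 times the median over the 16 liver libraries plus 0.5 CPM. Of 5705 genes at 20 CPM or more in fat, 283 met both limits, and 3 of these were left out because the rule named them: SCD, LEP and PPARG. The contrast of fat with liver is therefore what chose the members, and it is given here as a description only. The rule did not look at the fat groups. It was set with earlier results of these data known, so the comparison of HFD with LFD cannot be called independent of it.

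The series holds 32 RNA-seq libraries, 8 HFD and 8 LFD in each of the 2 tissues, all from females of one breed at 180 days that shared a test station, feed and housing. The labels name no agent or transgene. They file the words for high and low fat content under the heading of shear force, and they do not name the fat depot. The pigs were sorted into groups by their fat measures after slaughter, and the liver libraries came from separate pigs per the study's methods. The replicates are numbered 1 to 8 in each group. Whether each fat library is a separate pig, and whether equal numbers in fat and liver are one pig, is not given in the sources used here, so p-values in fat measure the spread between these libraries.

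Fat libraries held 9409976 to 19484621 counts and liver libraries 19837882 to 30457374. The members took a median of 12.4% of the counts of a fat library and 0.160% of a liver library. In fat HFD replicate 2 the 10 most abundant genes took 80.9% of the counts and the members 4.13%. An unnamed gene that is no member, ENSSSCG00000041596, took 45.2% of the counts of that library. In fat LFD replicate 4 the 10 most abundant genes took 42.2%, against a median of 25.3% over all fat libraries. TMM scaling, which sets libraries on a common scale from the bulk of their genes, gave factors of 0.319 and 0.760 for these libraries and 0.927 to 1.32 for the other 14. Levels below are TMM-scaled CPM ("normalised CPM"), and results that rest on these libraries are given without them too. The same HFD replicate 2 held the highest sum of 8 hepatocyte markers, 1680 normalised CPM against an HFD median of 258 and an LFD range of 165 to 298. HFD replicates 3 and 8, at 471 and 398, also lay above that LFD range. The part that these markers and libraries play in the results was not tested.

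Defining genes of the adipocyte were abundant in the libraries labelled fat: PLIN1, ADIPOQ, FABP4, LIPE and CIDEC were all members. Of 14 skeletal muscle markers with an identifier 3 passed the low-count filter in fat, and their sum ran from 4.48 to 15.7 normalised CPM. No endothelial or immune marker of the lists was a member, although 9 endothelial and 10 immune markers were measured in fat. Just inside the fold limit stood KIAA0930 (20.2 times), EBF3 (20.2) and ADAMTS12 (20.3), and just outside it GPC6 (19.8), COL12A1 (19.8) and GDF11 (19.7). The members with the largest ratio were ADIPOQ at 5714, LPL at 4665, FABP4 at 4474, TRARG1 at 2317 and LIPE at 1205. These values chose the members and support nothing else.

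A symbol was paired with 255 of the 280 identifiers, and 245 matched a single protein-coding RefSeq gene of build Sscrofa11.1 with a full window of 150 bases before its start. In these windows TATAAA on the coding strand occurred in 5.71% of the members and in 3.94% of 19502 protein-coding genes. CCAAT on either strand occurred in 19.2% and 23.1%, and GGGCGG on either strand in 43.3% and 40.6%. The PPAR response element of 2 direct repeats, AGGTCANAGGTCA on either strand, was in 0 member windows and in 0.0103% of all windows. None of these motifs contains another, and a match describes letters, not a binding site.

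The next 3 stretches of 30 bases, read 5′ to 3′ on the strand of the gene, are shown because these fatty acid synthesis genes varied together most closely among the gene lists. Capitals mark the GGGCGG match, or its reverse complement CCGCCC, that lies nearest the start. All 3 held at least 1 such match in 150 bases. They are ELOVL6 at chr8:112038565-112038594, ACLY at chr12:20796610-20796639 and ME1 at chr1:82799759-82799788.
ELOVL6: acccacccttgcCCGCCCtcagcatcccca
ACLY: ccccggacccgaGGGCGGggctatgccggg
ME1: tgcccgcgggtcGGGCGGggggacatgacc

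Of the 14 members with TATAAA, those that stand on the gene lists below with the highest levels are shown, with TATAAA in capitals at 29 bases before the start. They lie upstream of COL1A2, a chain of type I collagen, at chr9:74174443-74174472 and of FABP5, a fatty acid binding protein, at chr4:55282597-55282626 on the minus strand.
COL1A2: aaactttggccgTATAAAtagggcagatac
FABP5: gcgcgccgccttTATAAAgcagccgcagtg

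The 10 members with the highest median CPM by library total follow, with their normalised CPM. The most abundant was COL3A1, the chain of type III collagen (chr15:93556914-93595678). Its level in the 16 fat libraries ran from 8594 to 15650 normalised CPM with a median of 11010. SPARC, a collagen-binding matrix protein, followed with 4598 to 10370 and a median of 5467. The adipocyte genes came next: ADIPOQ, which encodes adiponectin, at a median of 4958, FABP4, the fatty acid carrier of adipocytes, at 4810, and LPL, the lipase that frees fatty acids from lipoproteins, at 4259. ELOVL6, a fatty acid elongase, stood at 3977, BCAM, a laminin receptor, at 3651, RETSAT, a retinol saturase, at 3332, COL1A1, a chain of type I collagen, at 3296 and PLIN1, the main perilipin of the fat cell droplet, at 2329. In normalised CPM COL1A2, at 2504, stood above PLIN1. Neighbours in this order overlapped across libraries.

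**Figure D1:**
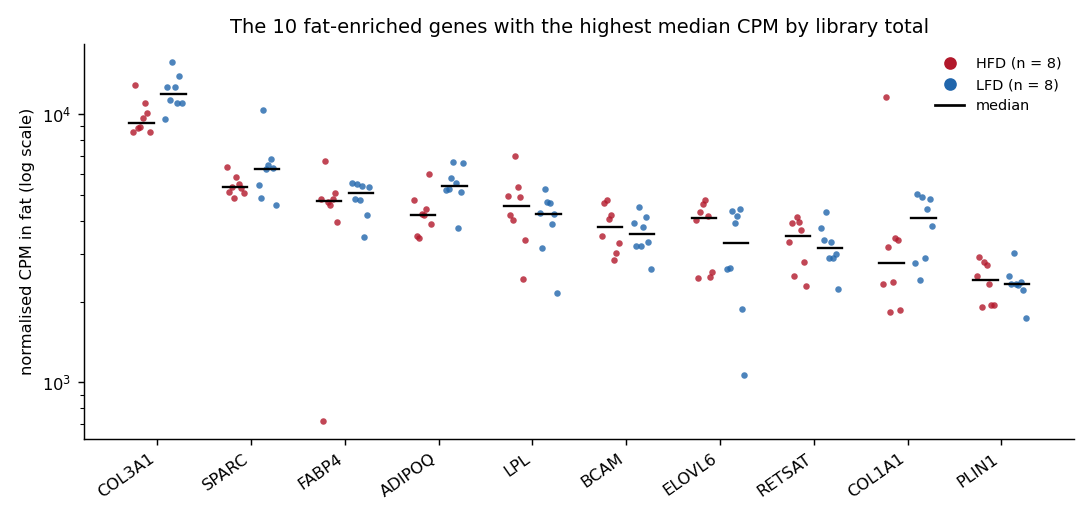
Normalised CPM (log axis) in each of the 16 fat libraries of the 10 fat-enriched genes with the highest median CPM by library total; points are libraries (8 HFD, 8 LFD) and bars group medians. COL3A1 lies above 8590 in every library, and 1 HFD library lies at 720 for FABP4 and at 11540 for COL1A1, away from the other 7.

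Per kilobase of exon the order differed. FABP4 reached 5522 normalised CPM per kb, ADIPOQ 5034, SPARC 2963 and COL3A1 2309, followed by FABP3 at 2277. The RefSeq model of ADIPOQ is marked partial, so its length is a lower limit and its value per kb an upper one. By level without regard to length, 23 members had a median of at least 1000 normalised CPM in fat, 111 lay from 100 to under 1000 and 146 below 100. In liver 133 members had a median under 1 CPM and 32 had one of at least 10 CPM.

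Grouped by role, 50 members stood on 1 of 16 lists of named genes and 230 on none. The list of extracellular matrix genes gave most, 17 of 28, among them COL3A1, COL1A1, COL1A2 and chains of collagen types IV, V, VI and XV. Lipid droplet and lipolysis genes gave 6 of 14: PLIN1, LIPE, PLIN4, PNPLA2, CIDEC and MGLL. LIPE, the hormone-sensitive lipase, ran from 1137 to 2509 normalised CPM, and PNPLA2, the lipase that takes the first fatty acid off triglyceride, from 711 to 1202. Fatty acid uptake gave FABP4, LPL, FABP5 and GPIHBP1, which anchors LPL in capillaries. De novo fatty acid synthesis gave 4 genes, among them ELOVL6, ACLY and ME1. Adipokines gave ADIPOQ, SFRP5, SFRP2 and FGF2, transcription factors gave EGR1, EBF1, HOXA5, ZNF423 and EBF2, and hormone signalling and caveolae gave 7 genes, among them SLC2A4, the insulin-responsive glucose transporter.

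The spread between libraries was measured as the SD of log2 CPM within the 2 fat groups. Over the members its median was 0.468, with 90% of members between 0.230 and 0.945. Over all 13082 genes tested in fat the median was 0.414, and over the 5444 of these with a mean of at least 20 normalised CPM it was 0.337. Without HFD replicate 2 and LFD replicate 4 the medians were 0.424, 0.321 and 0.256. The members' median was the higher one in each comparison, and no test was made of it.

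**Figure D2:**
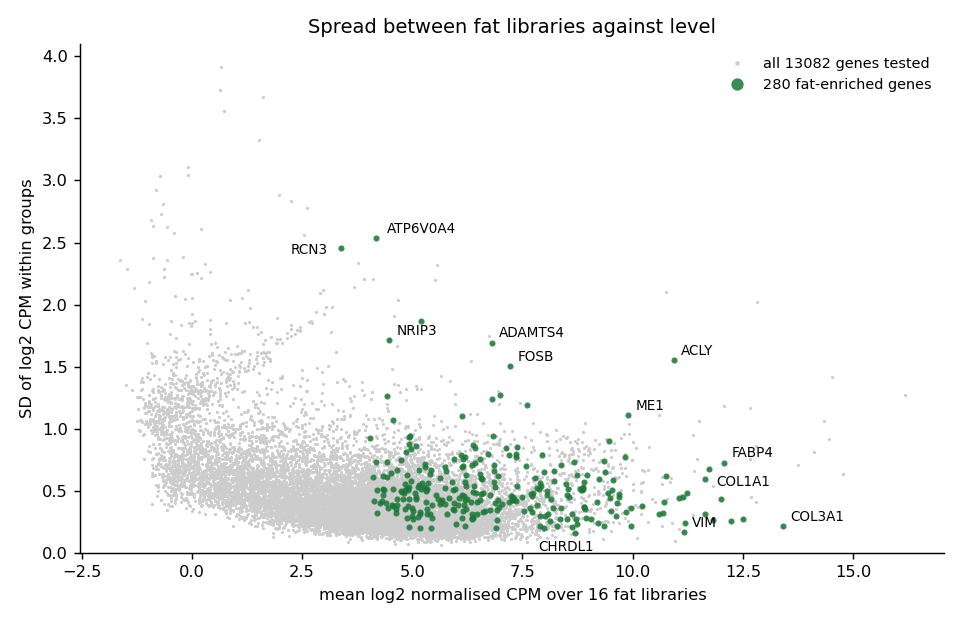
SD of log2 CPM within fat groups against mean log2 normalised CPM, for all 13082 genes tested (grey) and the 280 fat-enriched genes (green). ACLY stands out among abundant members with an SD of 1.55, while VIM (0.167), CHRDL1 (0.163) and COL3A1 (0.214) lie below 0.236, the first quartile of genes tested with a mean of at least 20 normalised CPM.

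The steadiest members were CHRDL1, a secreted antagonist of bone morphogenetic proteins, with an SD of 0.163 and 334 to 491 normalised CPM, and VIM, the intermediate filament of mesenchymal cells, with an SD of 0.167 and 1720 to 2805. An unnamed gene (ENSSSCG00000017063, 0.197), RGMA (0.198) and FAP (0.198), a fibroblast surface protease, came next. The highest level of each of CHRDL1 and VIM was 1.47 and 1.63 times the lowest. This order changed without HFD replicate 2 and LFD replicate 4. The smallest SDs were then those of LAMA4 (0.130), VIM (0.133), FAP (0.135) and CHRDL1 (0.141). ENSSSCG00000017063 was at 0.189 and RGMA at 0.202, above COL3A1 at 0.157.

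The most variable member was ATP6V0A4, a subunit of the proton pump, with an SD of 2.54. Its count was 0 in HFD replicate 1, which allows up to 0.162 normalised CPM (3 counts, counting error only), against a median of 481 and a highest of 1646 counts over the libraries. RCN3, a calcium-binding protein of the endoplasmic reticulum, had an SD of 2.45, a count of 0 in HFD replicate 2, which allows up to 0.999 normalised CPM, and up to 60.2 normalised CPM in HFD replicate 3. The unnamed ENSSSCG00000001931 (SD 1.87) lay at 0.300 normalised CPM in LFD replicate 7 and 97.7 in HFD replicate 3. NRIP3 (1.72) ran from 1.55 in HFD replicate 5 to 107 in HFD replicate 2, and ADAMTS4 (1.69), a matrix protease, from 26.3 in HFD replicate 4 to 964 in HFD replicate 2. The submitters' notes name RSEM, which estimates the counts of genes that share reads, so whether a 0 count means that no read of the gene was present was not tested. The place of ATP6V0A4 and RCN3 in this order rests on such counts. Without HFD replicate 2 and LFD replicate 4 the SD of RCN3 was 1.53, below that of ACLY at 1.65.

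Single libraries supplied many of the extremes. HFD replicate 2 was the lowest library for 61 members and the highest for 64, LFD replicate 8 the lowest for 53 and HFD replicate 3 the lowest for 38 and the highest for 32. HFD replicate 6 was the lowest for 2 and the highest for 1.

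Fatty acid synthesis genes spread widely in a shared pattern. ACLY, which makes cytosolic acetyl-CoA from citrate, ran from 181 to 6039 normalised CPM, a ratio of 33.4. ME1, the malic enzyme, a source of NADPH, spanned a ratio of 13.1, and ELOVL6 one of 4.496. The lowest library of all 3 was LFD replicate 8, with ACLY at 181, ME1 at 208 and ELOVL6 at 1067.

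The libraries numbered 7 and 8, in both fat groups, held the 4 lowest values of both ACLY and ME1. ACLY lay at 181 to 730 normalised CPM in these 4 libraries and at 1182 to 6039 in the other 12. ME1 lay at 208 to 448 against 565 to 2716. ELOVL6, at 1067 to 2572 against 2440 to 4797, overlapped. The labels give the numbers no meaning. This split was seen in the values, so it has no test.

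The correlation of ELOVL6, ACLY and ME1 over the 16 fat libraries, after the group means were taken out, had a median of 0.909 over the 3 pairs, with a range of 0.899 to 0.922 and a median Spearman rho of 0.876. Without HFD replicate 2 and LFD replicate 4 the median was 0.936, and leaving out each library in turn gave 0.877 (without LFD replicate 8) to 0.935. FASN and SCD, which are no members but stand on the same list, had median correlations with these 3 genes of 0.807 and 0.872, and both were lowest in LFD replicate 8, at 5043 and 2450 normalised CPM. These libraries share one scaling, and the pairs are not independent.

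**Figure D3:**
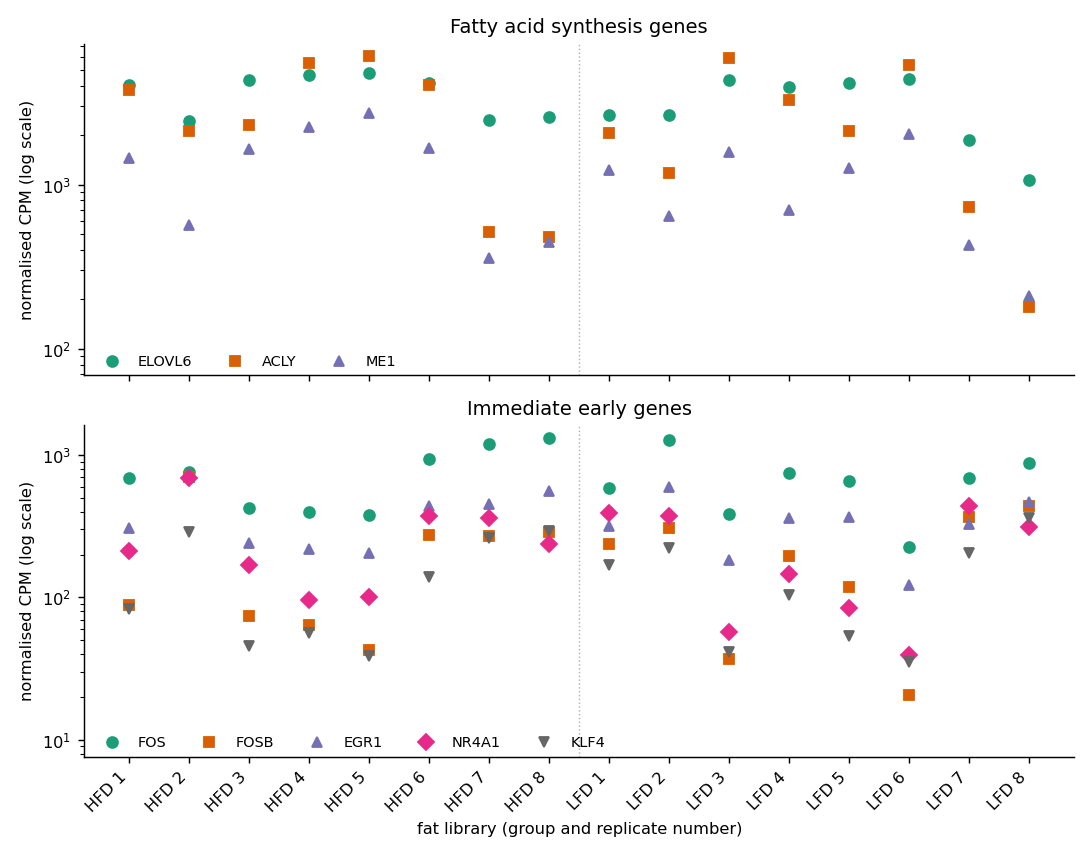
Normalised CPM (log axis) in each fat library, by group and replicate number, of 3 fatty acid synthesis genes (upper panel) and 5 immediate early genes (lower panel). The upper genes are low in the libraries numbered 7 and 8 of both groups, and the lower genes are lowest in LFD 6, where FOSB lies at 20.6 against 699 in HFD 2.

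The immediate early genes FOS, FOSB, EGR1, NR4A1 and KLF4, transcription factors that cells switch on within minutes of a stimulus, were grouped after their values were seen. FOSB ran from 20.6 normalised CPM in LFD replicate 6 to 699 in HFD replicate 2, FOS from 224.6 in LFD replicate 6 to 1309 in HFD replicate 8, and NR4A1 from 39.6 to 686. All 5 were lowest in LFD replicate 6. Their median correlation was 0.878 over 10 pairs, and 0.894 without HFD replicate 2 and LFD replicate 4. Against ELOVL6, ACLY and ME1 the median was -0.748 over 15 pairs, with a range of -0.895 to -0.609, and -0.749 without these libraries. HFD replicates 4 and 5 and LFD replicates 3 and 6, which held the 4 highest values of ACLY, at 5342 to 6039 normalised CPM, held the 4 lowest of FOSB, at 20.6 to 64.5.

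For the other abundant members, the genes most like them were looked up after the values had been seen. Among the members most like LPL over the 16 libraries were ITGA7 (r = 0.862), a laminin-binding integrin, ACLY (0.855), and the hexokinases HK1 (0.839) and HK2 (0.838). Without HFD replicate 2 and LFD replicate 4 these values were 0.842 to 0.885. LPL itself was lowest in LFD replicate 8 (2158 normalised CPM) and HFD replicate 7 (2431) and highest in HFD replicate 4 (6990).

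The likeness of FABP4 to other members depended on 1 library. FABP4 stood at 720 normalised CPM in HFD replicate 2 and at 3486 to 6709 in the other 15. The members most like it were IMPA2 (r = 0.957), GPX8 (0.954), the unnamed ENSSSCG00000000576 (0.951), LGALS1 (0.938) and S100A12 (0.929). With HFD replicate 2 and LFD replicate 4 left out they were 0.437 to 0.742. Among the 5 of these genes with a symbol, FABP4 included, the median correlation was 0.940 with all libraries and 0.690 without HFD replicate 2.

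Collagen chains were the members most like COL3A1, less closely than the genes above. They were COL1A1 (r = 0.744), COL1A2 (0.734), COL6A1 (0.691), COL5A1 (0.634) and COL6A3 (0.626). In the other 14 libraries, without HFD replicate 2 and LFD replicate 4, the values were 0.592, 0.566, 0.428, 0.255 and 0.380. Over all 17 matrix members the median correlation was 0.359 over 136 pairs and 0.195 without these libraries. COL3A1 had its highest value, 15650 normalised CPM, in LFD replicate 4, and COL1A1 its highest, 11540, in HFD replicate 2. SPARC, on the same list, was most like SFRP5 (0.758), CLMP (0.754) and NEXN (0.726), and its r with COL3A1 was -0.026. ADIPOQ was most like PPP1R1B (0.657), a phosphatase inhibitor, and its most negative values were with BCAM (-0.630) and ZNF423 (-0.608), a transcription factor of preadipocytes. Without the libraries named above these were 0.627, -0.576 and -0.633.

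The 10 pairs among the 5 most abundant members were tested by permutation (100000 resamples, two-sided). The smallest adjusted p was 0.261, shared by COL3A1 with FABP4 and SPARC with LPL. COL3A1 and FABP4 had a Pearson r of -0.545 (permutation p = 0.0272) and a Spearman rho of -0.318 (permutation p = 0.231, adjusted 0.770). The r fell to -0.124 without the 2 libraries farthest from the COL3A1 median, HFD replicate 2 and LFD replicate 4, so the relation rests on those libraries. SPARC and LPL had an r of 0.503 (permutation p = 0.0522) and a rho of 0.538 (permutation p = 0.0347, adjusted 0.347), and an r of 0.217 without LFD replicates 3 and 8.

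Over all 39060 pairs of members the median correlation was 0.0154, and 12.5% of pairs reached 0.5 while 10.8% lay at or below -0.5. Over all pairs of the genes tested the median was 0.00865 and 15.3% reached 0.5. Leaving out HFD replicate 2 and LFD replicate 4, the shares at or above 0.5 were 13.3% of the member pairs and 10.9% of all pairs. With library totals in place of TMM the members' median was 0.526. Under TMM the median pair of members was thus near 0, and the closely correlated groups above lay inside the set.

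Between fat of HFD and LFD pigs no member passed an adjusted p of 0.05 in edgeR's quasi-likelihood test over 13082 genes, of which 0 (0%) passed. The smallest adjusted p of a member was 0.298. At an unadjusted p under 0.05 stood 30 of the 280 members, 10.7%, where 6.65% of all genes tested did. Of these 30, 25 were lower in HFD (8.93% of the members, 2.73% of all genes) and 5 were higher (1.79% of the members, 3.92% of all genes). The members' median log2 fold change was -0.0042 and that of all genes 0.0169, and 143 members lay below 0 and 137 above, where 46.5% of all genes lay below. Most differences were small: 243 members differed by less than 0.5 on the log2 scale and 2 by 1 or more, with a median standard error of 0.221.

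The split by direction over all genes depended on the scaling, while members at an unadjusted p under 0.05 were mostly lower with either scaling. With library totals in place of TMM the median over all genes shifted to -0.104, and members at an unadjusted p under 0.05 numbered 22 lower and 1 higher, against 262 lower and 95 higher over all genes (357 and 513 with TMM). Leaving out HFD replicate 2 and LFD replicate 4 gave 31 members lower and 3 higher, against 419 lower and 417 higher over all genes, and the members' median was -0.047. DESeq2 called 49 genes at an adjusted p under 0.05, 4 of them members: ENSSSCG00000017164 (DESeq2 adjusted p = 0.0327), CLSTN3 (0.0331), FKBP10 (0.0331) and CCDC80 (0.0499). Without both libraries DESeq2 called 38 genes and 1 member, CLSTN3 (DESeq2 adjusted p = 0.00572).

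**Figure D4:**
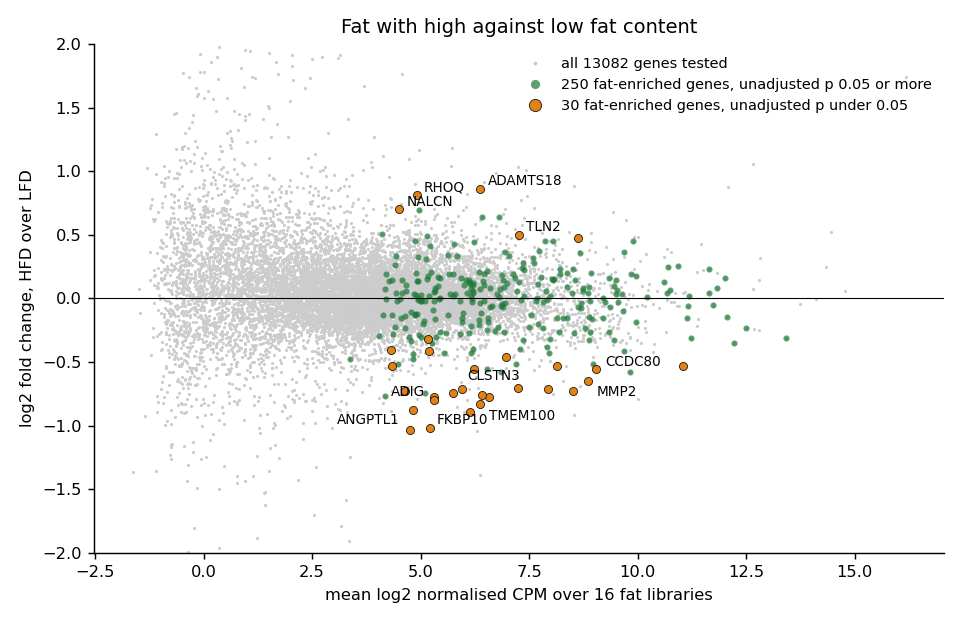
Log2 fold change of HFD over LFD fat against mean log2 normalised CPM, for all 13082 genes tested (grey, 21 lie outside the range drawn) and the 280 fat-enriched genes, with the 30 at an unadjusted p under 0.05 in orange. Of these, 25 lie below 0 and 5 above.

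The lower genes with the smallest p were the following 5, chosen for that p. CLSTN3, a calsyntenin of the cadherin family, had 31.1 to 71.3 normalised CPM in HFD (median 51.9) and 65.3 to 106 in LFD (median 80.2). Each HFD library was under the middle of the LFD libraries, and the groups overlapped. Its log2 fold change was -0.71 (SE 0.166, edgeR adjusted p = 0.298, exact permutation p = 0.000311). FKBP10, a chaperone of collagen in the endoplasmic reticulum, had 20.4 to 44.9 normalised CPM in HFD (median 24.4) and 26.6 to 92.6 in LFD (median 49.9), a log2 fold change of -1.02 (SE 0.241, edgeR adjusted p = 0.298).

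ANGPTL1, a secreted angiopoietin-like protein, had 10.9 to 36.3 normalised CPM in HFD (median 22.4) and 26.1 to 58.4 in LFD (median 41.96), a log2 fold change of -0.88 (SE 0.223, edgeR adjusted p = 0.381). ADIG, a small membrane protein of adipocytes, had 19.0 to 41.5 in HFD (median 33.2) and 19.7 to 80.0 in LFD (median 55.95), a difference of -0.80 (SE 0.212, edgeR adjusted p = 0.400). TMEM100, a membrane protein known from endothelium, had 40.3 to 115 in HFD (median 59.0) and 57.7 to 159 in LFD (median 125), a difference of -0.83 (SE 0.228, edgeR adjusted p = 0.441). For each of these 5 genes every HFD library was under the median of the LFD libraries, and the ranges overlapped. Outside these 5, chosen after their values were seen, CCDC80, a secreted protein of fat, had 329 to 516 in HFD (median 459) and 498 to 1000 in LFD (median 605), a difference of -0.56 (SE 0.157, edgeR adjusted p = 0.456). LDHB, a lactate dehydrogenase subunit, had medians of 125 and 189, RBP7, a retinol-binding protein, 29.7 and 49.9, and RXRG, a nuclear receptor partner of the PPARs, 17.5 and 25.4.

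The higher genes with the smallest p began with the unnamed ENSSSCG00000017164. It had 383 to 583 normalised CPM in HFD (median 454) and 254 to 373 in LFD (median 342), and its groups did not overlap, as in 1 of 280 members and 0.0306% of all genes tested. Its log2 fold change was 0.48 (SE 0.130, edgeR adjusted p = 0.434), and the exact permutation p of 0.000155 is the smallest that 8 against 8 libraries can give. That permutation p is unadjusted and follows from the lack of overlap, in a gene chosen for its small p. With library totals in place of TMM the log2 fold change was 0.31, with an edgeR unadjusted p of 0.237. RHOQ, a small GTPase linked to the traffic of the insulin-responsive glucose transporter, had 20.9 to 65.3 in HFD (median 40.2) and 15.5 to 44.04 in LFD (median 21.4), a difference of 0.81 (edgeR adjusted p = 0.492).

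NALCN, a sodium leak channel, had 14.0 to 59.7 normalised CPM in HFD (median 33.6) and 10.8 to 31.7 in LFD (median 17.6), a difference of 0.70 (edgeR adjusted p = 0.661). TLN2, a talin that links integrins to actin, had 129 to 356 (median 177) and 94.7 to 203 (median 121), a difference of 0.50 (edgeR adjusted p = 0.682). ADAMTS18, a secreted metalloprotease, had 52.8 to 180 (median 130) and 18.3 to 133 (median 50.9), a difference of 0.86 (edgeR adjusted p = 0.704). All 8 HFD libraries were above the LFD median for TLN2 and ADAMTS18, 7 for RHOQ and 6 for NALCN. The difference of TLN2 was 0.31 without HFD replicate 2, the library at 356. That of NALCN was 0.52 without the same library, its highest at 59.7, and 0.45 without LFD replicate 4 as well.

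**Figure D5:**
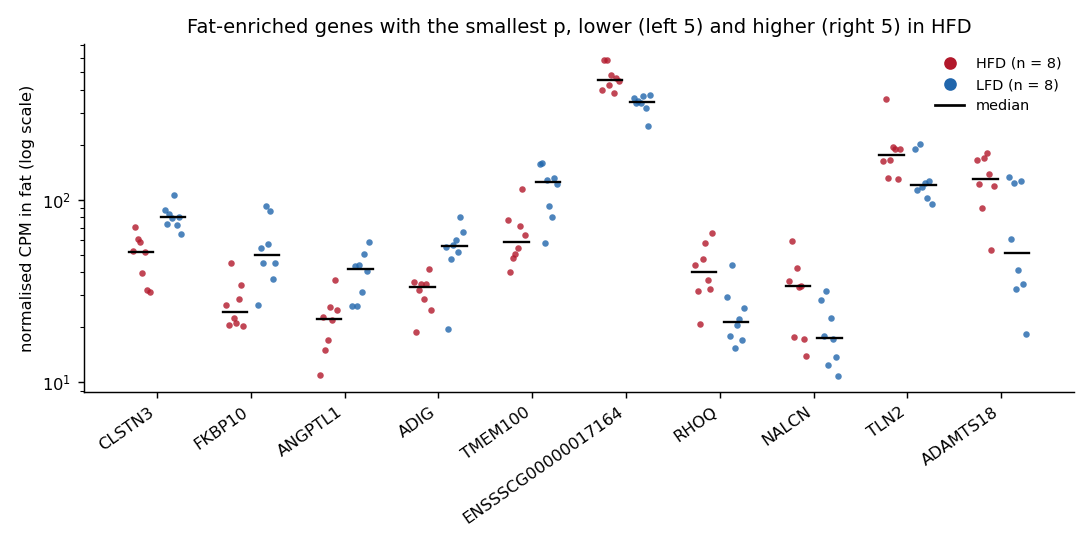
Normalised CPM (log axis) in each fat library of the 5 fat-enriched genes with the smallest p among those lower in HFD (left) and the 5 among those higher in HFD (right); points are libraries (n = 8 a group) and bars group medians. The HFD medians of CLSTN3 and FKBP10 lie at 51.9 and 24.4 against 80.2 and 49.9 in LFD, with overlapping groups except for ENSSSCG00000017164.

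By role, no member of the lists for lipid droplets (6 members), fatty acid uptake (4), fatty acid synthesis (4), adipokines (4), transcription factors (5) or hormone signalling and caveolae (7) was at an unadjusted p under 0.05. Of the 17 matrix members 2 were, both lower in HFD (2.73% of all genes were): MMP2, a collagenase, with medians of 383 in HFD and 636 in LFD normalised CPM, and COL6A2, with 220 and 368. In all, 12 matrix members lay below 0 and 5 above, with a median of -0.156. DPT, dermatopontin, from the fibroblast list, had 40.95 to 103 normalised CPM in HFD and 64.6 to 334 in LFD. Its difference was -0.77 (SE 0.285, edgeR adjusted p = 0.634), and -0.44 without LFD replicate 4. Of the 7 genes of the fibroblast list tested, DPT included, 5 lay above 0 and 2 below, with a median of 0.0415. Including non-members, 28 matrix genes were tested, of which 0 passed, 3 lay at an unadjusted p under 0.05 and lower, and 0 higher. Lower genes of other lists numbered 2 of 13 for lipid droplets, 2 of 15 for fatty acid uptake and 0 of 16 for fatty acid synthesis. Adipokines had 1 of 15, transcription factors 1 of 13 and hormone signalling and caveolae 1 of 19, where 2.73% of all genes were lower. Higher genes numbered 1 for the adipokines and 0 for the rest of these lists. Leaving out HFD replicate 2, where the matrix list had its highest sum, 9 of the 28 matrix genes were lower at that level and 0 higher. Their median was -0.216, and 3.78% of all genes were lower at that level. Hormone signalling and caveolae then had 4 of 19 lower and 0 higher. Lipid droplets and transcription factors each had 2 of 13 lower, and fatty acid uptake and adipokines each 2 of 15. Fatty acid synthesis had 0 of 16. Among these lists only the adipokines had a higher gene, 1. With its highest library gone, the HFD mean of the matrix sum falls, so the matrix counts are a description. Without LFD replicate 4 as well, 8 of the matrix genes and 3 of hormone signalling and caveolae were lower, where 3.17% of all genes were. Fatty acid uptake and transcription factors then had 2 each, lipid droplets and adipokines 1 each and fatty acid synthesis 0.

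COL3A1 had 8594 to 12880 normalised CPM in HFD (median 9290) and 9570 to 15650 in LFD (median 11920), a log2 fold change of -0.31 (SE 0.177, edgeR adjusted p = 0.826). COL1A1 had a median of 2776 in HFD and 4115 in LFD, and a log2 fold change of -0.05, with HFD replicate 2 at 11540, and -0.57 without that library. COL1A2 (-0.31) and COL6A1 (-0.41) went to -0.51 and -0.64 without the same library. ADIPOQ had medians of 4220 in HFD and 5397 in LFD (-0.35, SE 0.175, edgeR adjusted p = 0.774), and 7 of the 8 HFD values were under the LFD median. SPARC was at -0.24, and at -0.10 without LFD replicate 3. The other members of the 10 had medians of 3778 in HFD and 3569 in LFD (BCAM), 3511 and 3167 (RETSAT) and 2409 and 2329 (PLIN1), each median higher in HFD and the ranges overlapping. Among list members of lower level, CAVIN1, the coat protein of caveolae, was at -0.27 and PNPLA2 at -0.18. FABP5 was at -0.24 and HOXA5 at -0.30, and these were -0.10 and -0.54 without HFD replicate 2.

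The differences of these fatty acid synthesis members were above 0 and smaller than their standard errors. ELOVL6 differed by 0.23 (SE 0.276), ACLY by 0.25 (SE 0.601) and ME1 by 0.45 (SE 0.464), all with an edgeR adjusted p of 0.915 or more. Of the 16 tested genes of the list 13 lay above 0, with a median of 0.232, and 0 were at an unadjusted p under 0.05. With 1 library left out these differences ran from 0.10 to 0.32 for ELOVL6, 0.04 to 0.54 for ACLY and 0.24 to 0.68 for ME1. LPL differed by 0.16 (SE 0.226), and by 0.05 without HFD replicate 4. FABP4 differed by -0.14 (SE 0.293), with medians of 4760 in HFD and 5090 in LFD, and by 0.02 without HFD replicate 2. Among markers of other cell types in fat, 7 of 8 hepatocyte, 2 of 10 immune and 2 of 9 endothelial markers were at an unadjusted p under 0.05 and higher in HFD, where 3.92% of all genes were. These counts without HFD replicate 2 were 1, 2 and 0, where 4.22% of all genes were, and without LFD replicate 4 as well 1, 0 and 0. All 8 hepatocyte markers lay above 0 with all libraries (median 1.73), without HFD replicate 2 (0.409) and without both (0.382).

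In liver the members are scarce by the rule, and 194 of 280 passed the low-count filter there. No gene of 13051 (0%) passed an adjusted p of 0.05 in edgeR's quasi-likelihood test, and the smallest adjusted p of a member was 0.813. At an unadjusted p under 0.05 stood 23 members, 20 higher in HFD and 3 lower, where 5.78% of all genes did (2.92% higher, 2.86% lower). Because passing the filter depends on the level in a group, these counts describe only the genes that passed. In DESeq2, which gave a value for all 280, 204 members were above 0 and 76 below, where 49% of all genes were above, and in edgeR 49.2% of all genes lay below 0. The 194 members' median log2 fold change was 0.20, and with library totals, which shifted the median of all liver genes to 0.103, it was 0.30.

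Single livers were often the highest. Over these 194 members HFD replicate 2 was the highest library for 44, HFD replicate 7 for 30 and HFD replicate 8 for 25, and LFD replicate 2 was the lowest for 48. In HFD replicate 2 LPL reached 9.74 normalised CPM against an HFD median of 0.590 and an LFD range of 0.0381 to 1.03, and FABP4 9.70 against 0.981 and 0.323 to 1.24. PLIN1 (9.79) and LIPE (3.13) were highest in that liver too. FBLN2, a matrix glycoprotein and the member with the smallest p in liver, had 3.34 to 10.8 in HFD and 1.76 to 4.38 in LFD, a log2 fold change of 1.00 (SE 0.253, edgeR adjusted p = 0.813). At an unadjusted p under 0.05 stood 17 members without HFD replicate 2 and 15 without HFD replicate 7, against 37 without HFD replicate 1. Sums of non-member fibroblast markers in liver, 114 to 224.6 normalised CPM in HFD and 127 to 261 in LFD, overlapped, as did those of endothelial markers, 293 to 490 and 239 to 531.

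Of the 30 members at an unadjusted p under 0.05 in fat, 2 were also there in liver, where 5.78% of all genes tested were. Each of the 2 went in the opposite direction. In fat 25 of the 30 were lower in HFD, and in liver 20 of the 23 members at that level were higher. CCDC80 was at -0.56 in fat and 0.52 in liver, and DPT at -0.77 and 0.56. The tissues come from libraries that the labels do not pair, and the difference between tissues was not tested.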

How the data were processed

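Fat and liver were profiled in 16 libraries each, 8 HFD and 8 LFD, by RNA-seq with a kit for polyadenylated RNA. The deposited tables hold the authors' read counts per Ensembl gene, whole numbers with no normalisation. The submitters' processing notes name FastQC, STAR, RSEM and DESeq2, without versions, and build Sscrofa11.1. Whether counting used strand is not given in the sources used here, so overlapping and antisense genes cannot be told apart. Liver was counted in 2 runs, which were added per sample. Columns left out numbered 0.

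Symbols were paired with 15029 of 31908 identifiers. RefSeq Sscrofa11.1 gene models gave positions, exon lengths and the 150 bases before the start, matched by symbol. HFD and LFD were compared within each tissue with edgeR 4.0.16 (quasi-likelihood test, TMM, filterByExpr, Benjamini-Hochberg adjustment over all genes tested). Single genes were tested by an exact two-sided permutation test of group means. Log2 CPM used a prior count of 1. Alternatives were DESeq2 1.42.0, limma 3.58.1 (voom), library totals, a replicate block and each library left out. They also held other limits of the rule and TMM scaling of all 32 libraries for it. Leaving out both fat libraries that stand apart and counts of the gene lists without HFD replicate 2 were added after seeing the data. On simulated counts, edgeR recovered 72.0% of genes changed by log2 1 in fat (12983 genes) and 87.8% in liver (12951 genes). The simulation changed 200 genes by log2 1 or 2, drew each gene independently and held no smaller changes. These shares therefore do not say how often differences of the size seen here would be found. Limits at a count of 0 cover counting error only.

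Genes named were the 10 most abundant, the 5 with the smallest p in each direction, the 5 most and 5 least variable, the 5 most like COL3A1, up to 4 per gene list and 3 on each side of the fold limit. Other genes were chosen after their values were seen. Some genes that the rule named are not reported here. The members and lists were chosen with earlier results of these data known.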

Additional observations from a re-analysis of the deposited data

Results flagged for a closer look

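In groups of 8 libraries, the gap between the most extreme library and its neighbour was set against the range of the group, with a limit of 0.526. Of 52 groups tested, 9 had a library past the limit, and 5 of these were HFD replicate 2 of fat. Chance flags about 1 in 20 groups. In that library FABP4 stood at 720 normalised CPM, COL1A1 at 11540 and TLN2 at 356, the fat-enriched genes took 4.13% of its counts, and its 10 most abundant genes took 80.9%. In LFD fat, SPARC stood at 10370 normalised CPM in replicate 3, and ENSSSCG00000017164 at 254 in replicate 7. The 10 most abundant genes took 42.2% of the counts in replicate 4 of LFD fat and 47.2% in replicate 7 of LFD liver.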

How the results depend on the processing

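In fat the number of genes called at an adjusted p of 0.05 was 0 in edgeR, 49 in DESeq2 and 1 in limma-voom. Without HFD replicate 2 and LFD replicate 4 it was 1 in edgeR and 38 in DESeq2, and with 1 library left out it was 0 to 2, the highest without LFD replicate 3. Fat-enriched genes among the calls numbered 4 in DESeq2, 1 in DESeq2 without both libraries and 0 with 1 library left out in edgeR. Fat-enriched genes at an unadjusted p under 0.05 numbered 23 to 40 over the alternatives other than leaving out 1 library, and 26 to 42 with 1 left out. In liver, with 23 at that level, DESeq2 gave 37, the replicate block 11 and leaving out 1 library 15 (without HFD replicate 7) to 37 (without HFD replicate 1). A fold limit of 10 gave 477 genes and one of 40 gave 172. With TMM scaling of all 32 libraries in place of library totals, the rule kept 198 of the 280 genes, lost 82 and gained 0. With library totals the median log2 fold change in fat was -0.146 and the median correlation 0.526. The fold change of FABP4 was 0.0135 (edgeR) and 0.0185 (DESeq2) without both libraries, and ran from -0.254 (without HFD replicate 3) to 0.0153 (without HFD replicate 2) with 1 left out. That of COL1A1 ran from -0.567 (without HFD replicate 2) to 0.0668 (without HFD replicate 8). The causes of these changes were not tested. Of 675 refitted fold changes of 27 printed genes, 665 kept their direction. The refits share most of their libraries and some genes were printed for a small p, so this count is no independent support. Same-numbered HFD and LFD libraries had a mean correlation of 0.13 in fat (0.0195 to 0.247) and -0.0029 in liver. In fat 5 of the 8 pairs were over 0.1, and differently numbered libraries had a mean of -0.0192. Since not every pair was over 0.1 and the labels give the numbers no meaning, the libraries were not treated as paired in the main fits. All 8 pairs in fat were above 0, and what same-numbered libraries share was not tested. With the replicate as a block, 0 genes in fat were called and 40 fat-enriched genes stood at an unadjusted p under 0.05.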

Other observations

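Between gene lists in fat, the fatty acid synthesis genes had a median correlation of 0.482 with the fat-enriched genes of hormone signalling and caveolae and of -0.464 with the adipokines. Without HFD replicate 2 and LFD replicate 4 these values were 0.672 and -0.598. They are descriptions over 16 libraries that share one scaling.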
